A study of Mus musculus with 12 samples.

Results

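The adult globin genes Hba-a1, Hba-a2, Hbb-bs and Hbb-bt were followed in mouse whole bone marrow after irradiation and treatment with DEIX, which the study's title gives as deinoxanthin, a carotenoid made by a bacterium. They are 4 of the 5 genes of a list fixed by name, read from a table of 21853 genes. The fifth, Ahsp, which encodes the chaperone that holds free alpha globin, was not analysed here. The 4 genes were found by matching the table's gene identifiers to GENCODE vM21 symbols.

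Marrow came from B6 mice in 4 groups of 3 libraries. Control mice had no irradiation, and the labels state no gavage for them. TBI mice received 5 Gy of total body irradiation with gamma rays at 0.66 Gy per minute and then 100 µL of olive oil, the vehicle, by mouth. TBI+DEIX mice received the same irradiation and then 25 mg of DEIX per kg of body weight by mouth once a day for 14 days, and DEIX mice received that treatment with no irradiation. Irradiated marrow was taken on day 14. Age is not given in the sources used here, and no step that removes red cells is described. Nothing says that the 3 libraries of a group came from separate mice, so p-values measure the spread between these samples, which may be technical.

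Haemoglobin, the oxygen carrier of red cells, is built from paired alpha and beta globin chains, each holding a haem. In marrow, erythroblasts switch the adult globin genes on as they mature, under factors such as GATA1 and KLF1, until globin dominates the cell's RNA. Alpha and beta genes sit on different chromosomes, and balanced output matters because unpaired chains precipitate. B6 mice carry a duplicated alpha pair, Hba-a1 and Hba-a2, and the beta pair Hbb-bs and Hbb-bt.

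Hba-a1 (ENSMUSG00000069919.7) lies at chr11:32283511-32284465 and Hba-a2 (ENSMUSG00000069917.7) at chr11:32296489-32297298, both on the plus strand of GRCm38. Hbb-bs (ENSMUSG00000052305.6) lies at chr7:103826534-103828096 and Hbb-bt (ENSMUSG00000073940.3) at chr7:103812524-103813996, both on the minus strand. All are annotated as protein coding, and the values are given per gene. How reads were assigned to the copies is not stated in the sources used here. Within each pair the coding sequences differ at a single base, which limits how well reads can be divided between the copies. The stretches that hold that base come from the GENCODE vM21 transcripts, with the differing base in capitals and positions counted from the first base of the start codon.
Hba-a1: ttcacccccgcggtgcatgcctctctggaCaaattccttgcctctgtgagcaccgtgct
Hba-a2: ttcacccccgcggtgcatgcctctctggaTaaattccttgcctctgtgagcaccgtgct
Hbb-bs: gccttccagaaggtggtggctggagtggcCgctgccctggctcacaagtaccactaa
Hbb-bt: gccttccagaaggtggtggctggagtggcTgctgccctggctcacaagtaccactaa

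The alpha copies differed by C381T over 429 coding bases, and the beta copies by C417T over 444. Over whole transcripts, of 699 and 554 bases for Hba-a1 and Hba-a2 and of 628 and 703 bases for Hbb-bs and Hbb-bt, the untranslated ends differ more. Of all 100-base windows in a transcript, 56.5% of those in Hba-a1 and 74.5% of those in Hba-a2 occur in the partner. The shares were 62.6% for Hbb-bs and 54.8% for Hbb-bt. Reads from such windows fit both copies, so the split within a pair is uncertain, and sums over a pair carry less of this uncertainty.

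The members moved together across libraries, so their promoters are shown for the motifs they share. The 250 bases upstream of each start in RefSeq (GRCm38.p6) were searched on both strands for CCAAT (the CCAAT box), for CACCC (the box bound by KLF1-type factors), for TATAA (the TATA box) and for GATAA (the core of the GATA motif). Matches are in capitals, and a match on the opposite strand reads as ATTGG or TTATA. Each of these genes starts upstream of the RefSeq start in GENCODE, by least in Hba-a2, so part of each window lies inside the GENCODE gene. The Hba-a1 window shares a run of 247 bases with that of Hba-a2, so the latter stands for both (chr11:32296242-32296491, plus strand). The others are Hbb-bs (chr7:103827929-103828178) and Hbb-bt (chr7:103813924-103814173), both on the minus strand.
Hba-a2: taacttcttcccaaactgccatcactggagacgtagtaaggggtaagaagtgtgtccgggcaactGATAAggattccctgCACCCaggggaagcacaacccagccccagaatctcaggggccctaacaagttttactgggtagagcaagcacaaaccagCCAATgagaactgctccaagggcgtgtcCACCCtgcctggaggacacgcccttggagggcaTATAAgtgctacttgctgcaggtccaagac
Hbb-bs: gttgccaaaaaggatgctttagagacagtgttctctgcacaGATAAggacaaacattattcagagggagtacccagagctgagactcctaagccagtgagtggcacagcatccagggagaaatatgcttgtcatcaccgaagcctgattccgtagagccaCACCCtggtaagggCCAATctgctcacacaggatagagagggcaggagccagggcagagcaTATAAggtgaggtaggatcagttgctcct
Hbb-bt: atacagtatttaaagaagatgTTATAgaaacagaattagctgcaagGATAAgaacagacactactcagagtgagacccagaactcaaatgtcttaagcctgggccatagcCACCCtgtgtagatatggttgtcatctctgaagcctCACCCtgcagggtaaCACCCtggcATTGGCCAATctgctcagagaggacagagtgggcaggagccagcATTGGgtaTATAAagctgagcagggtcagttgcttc

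All 4 windows held each of the 4 motifs, and no match overlapped another. Of 32851 such windows in the RefSeq table, 33.8% held CCAAT, 52% CACCC, 22.8% TATAA and 22.6% GATAA, and 0.968% held all of them. The TATAA nearest the start began 27 bases upstream in Hba-a1, 30 in Hba-a2, 29 in Hbb-bs and 28 in Hbb-bt. The longest exact run in common was 14 bases between Hbb-bs and Hbb-bt and 9 between Hba-a2 and Hbb-bs, which does not measure how far the windows align. These matches describe letters in a window and say nothing of binding.

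Values are FPKM, fragments per kilobase of transcript and per unit of mapped fragments, summing to between 493683 and 848843 per library. Total reads per library are not given, but the steps between low values put the worth of 1 read at 0.889 to 2.17 times that in control replicate 1, with all 3 TBI+DEIX libraries among the coarser ones and replicate 1 of them poorly determined. TBI+DEIX replicate 1 stood apart: its median root mean square log2 difference from the other libraries was 0.70, against 0.43 to 0.54 for the rest. The neutrophil genes S100a8, S100a9 and Ngp, otherwise at 13842.5 FPKM or more, are listed at 0 in 2, 4 and 5 libraries. Globin members were above 0 in every library. Changes below are log2 differences of FPKM plus 1, tested with limma over 10994 genes, and a call means an adjusted p (Benjamini-Hochberg) below 0.05. Rose and fell are used only of genes that were called.

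Hba-a1, the most abundant globin in the table, stood at 1880, 1792 and 3146 FPKM in control replicates 1 to 3 and at 4074, 866 and 1922 in TBI. In TBI+DEIX it stood at 75.4, 777 and 203, and in DEIX at 867, 3898 and 708. All TBI+DEIX libraries lay below every control and every TBI library, while DEIX replicate 2 and TBI replicate 1 exceeded every control.

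Hba-a2, the second alpha gene, stood at 1105, 1081 and 2036 FPKM in control and at 3013, 464 and 845 in TBI. It reached 24.2, 415 and 104 in TBI+DEIX and 446, 2274 and 402 in DEIX. The order of the libraries was close to that of Hba-a1, with the same TBI and DEIX library on top of its group.

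Hbb-bs, the more abundant beta gene, stood at 1481, 1178 and 1728 FPKM in control and at 3355, 642 and 976 in TBI. It reached 34.2, 579 and 143 in TBI+DEIX and 548, 3536 and 450 in DEIX. Its highest library was DEIX replicate 2, above all irradiated libraries.

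Hbb-bt, the less abundant beta gene, stood at 507, 432 and 628 FPKM in control and at 1045, 263 and 407 in TBI. It reached 14.4, 259 and 61.5 in TBI+DEIX and 180, 957 and 156 in DEIX. TBI+DEIX replicate 2 and TBI replicate 2 were near each other, at 259 and 263 FPKM, so the gap between those groups was narrow at its edge.

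**Figure D1:**
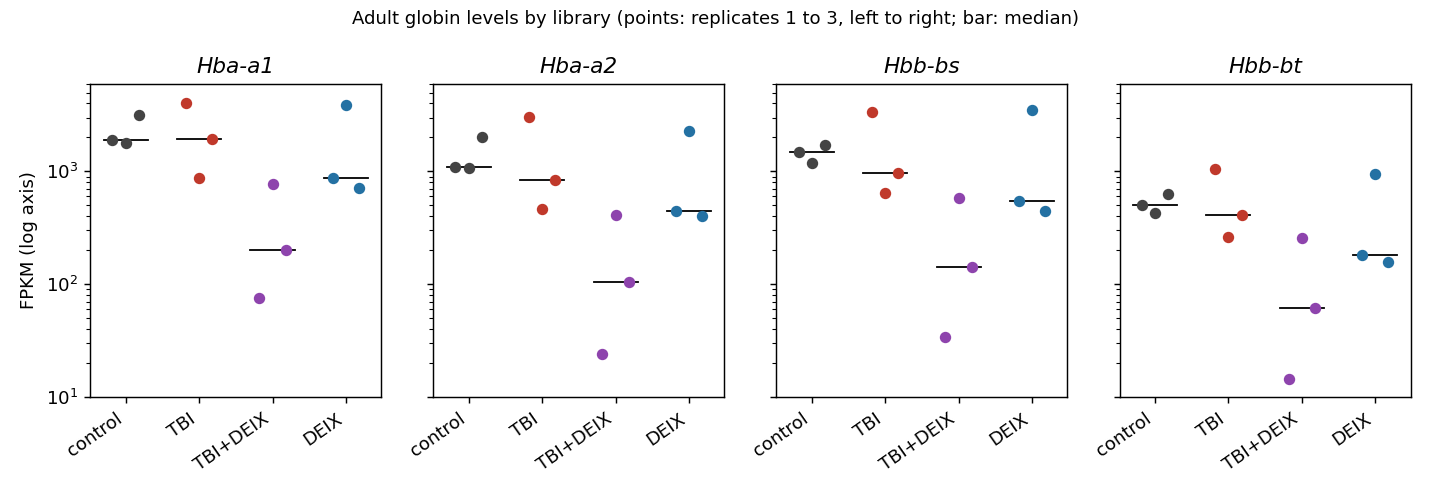
FPKM of the 4 adult globin genes in each library, on a log axis, by group. Every TBI+DEIX library lies below every control and TBI library for each gene, and DEIX replicate 2 and TBI replicate 1 are well above their group mates.

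In order of group mean, Hba-a1 stood at 2287 ± 1635 FPKM in TBI, 2273 ± 758 in control, 1824 ± 1798 in DEIX and 352 ± 374 in TBI+DEIX (SD, n = 3 each). The first 3 groups overlapped. Group means of Hbb-bs were 1658 ± 1479 in TBI, 1511 ± 1754 in DEIX, 1462 ± 275 in control and 252 ± 288 in TBI+DEIX (SD, n = 3 each). Hba-a2 and Hbb-bt followed the order of Hba-a1. Only TBI+DEIX did not overlap with control and TBI for any of the 4 genes, and it overlapped with DEIX for each of them.

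These genes varied widely between libraries of a group. The highest of the 12 libraries exceeded the lowest 54-fold for Hba-a1, 125-fold for Hba-a2, 104-fold for Hbb-bs and 72.5-fold for Hbb-bt, and TBI+DEIX replicate 1 was the lowest each time. Together the 4 genes made up 0.030% of summed FPKM there and 1.96% in TBI replicate 1. Within control the SD of the log2 value was 0.27 to 0.52, against 0.10 for the median gene. Within TBI+DEIX it was 1.68 to 2.04, against 0.24. In each group at least 96% of tested genes varied less than any member. In whole marrow, fewer erythroid cells and less globin RNA per cell cannot be told apart.

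Irradiation followed by DEIX was set against no treatment. All 4 adult globins fell, with log2 changes of -3.26 (SE 0.86) for Hba-a1, -3.70 (SE 1.00) for Hba-a2, -3.33 (SE 1.01) for Hbb-bs and -3.04 (SE 0.94) for Hbb-bt. In folds these are 9.57, 13, 10.1 and 8.21. The limma adjusted p-values were 0.0163, 0.0175, 0.0293 and 0.0324. In this comparison 30.0% of all tested genes were called, 13.1% as lower, and 21.1% were lower without overlap, as the 4 members were. Unadjusted, all 4 members and 41.6% of all genes had p below 0.05. The median change of the members was -3.30, against 0.02 over all tested genes, and 20 genes of 10994, the 4 members included, were lower by at least as much as the least changed member. The call rests on few libraries: without control replicate 3 no member passed (lowest adjusted p 0.0605), and without control replicate 1 or 2, or TBI+DEIX replicate 1 or 3, only the alpha genes did. The members' median was -2.39 without TBI+DEIX replicate 1, the library that stood apart, and -1.90 with limma's default array weights, which scale each library by its closeness to its group and weighted that library at 0.0498. Calls over all genes were 1855 higher and 1444 lower, and on a TPM scale 546 higher and 1239 lower. The 3299 calls became 2004 without control replicate 2 and 2181 when only the groups compared were fitted. That fit called 3 of the 4 members, with limma adjusted p-values from 0.0344 to 0.0649 over the 4. The main fit gave each gene 1 spread over all 4 groups, although the members varied more in TBI+DEIX than in control.

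The effect of DEIX in irradiated mice was set against irradiation with vehicle. The log2 differences of the members were -3.04 for Hba-a1, -3.36 for Hba-a2, -3.16 for Hbb-bs and -2.94 for Hbb-bt, or 7.66-fold to 10.2-fold lower, with no overlap for any of the 4. None was called, with limma adjusted p-values of 0.0537 for Hba-a1, 0.0616 for Hba-a2, 0.0746 for Hbb-bs and 0.0756 for Hbb-bt, beside 8.10% of all genes called, 3.41% as lower, and 12.7% lower without overlap. Unadjusted, all 4 had p below 0.05, as did 27.2% of all genes. Of 10994 genes, 5 were lower by as much as the least changed member, the 4 members included. Without TBI+DEIX replicate 2, the highest of its group, all 4 were called (lowest adjusted p 0.0241). Without TBI+DEIX replicate 1 the members' median was -2.20 in place of -3.10, and with default array weights it was -1.08, with no call in either. On a TPM scale Hba-a1 was called, and with S100a8, S100a9 and Ngp left out of that sum 2 members were. Calls over all genes were 516 higher and 375 lower, against 54 higher and 103 lower on the TPM scale. The 891 calls became 5 when TBI replicate 3 was left out and 345 when TBI replicate 2 was. They became 51 when TBI+DEIX replicate 3 was left out, 2836 when replicate 1 of that group was, and 0 when only the groups compared were fitted.

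Irradiation with vehicle against no treatment gave differences of -0.21 for Hba-a1, -0.35 for Hba-a2, -0.17 for Hbb-bs and -0.10 for Hbb-bt, with standard errors of 0.86 to 1.01. None of the members was called by limma (adjusted p from 0.891 to 0.967), and 3.99% of all genes were called. None had an unadjusted p below 0.05, as 18.1% of all genes did. The 439 calls over all genes dropped to between 153 and 259 with any 1 library of these groups left out, and were 1417 when only the groups compared were fitted. TBI replicate 1 was above every control and TBI replicate 2 below every control for all 4 genes. With limma's default array weights, 3 members were called lower (Hba-a1 at -0.89, Hba-a2 at -1.06, Hbb-bs at -0.74), but that estimate stopped before converging and gave control replicate 2 a weight of 97.5. A second weighting method, chosen after this outcome was seen, called none (lowest adjusted p 0.151).

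DEIX without irradiation against no treatment gave differences of -0.72 for Hba-a1, -0.86 for Hba-a2, -0.60 for Hbb-bs and -0.78 for Hbb-bt. No member was called by limma (adjusted p from 0.645 to 0.76), and 7.24% of all genes were. None had an unadjusted p below 0.05, as 24.7% of all genes did. The 796 calls over all genes, 497 higher and 299 lower, became 54 higher and 228 lower on a TPM scale. They dropped to between 146 and 218 when any 1 control library or DEIX replicate 1 or 3 was left out, and were 2057 when only the groups compared were fitted. DEIX replicates 1 and 3 lay below every control for all 4 genes and DEIX replicate 2 above every control. The median difference of the members, -0.75, became -1.58 when DEIX replicate 2 was left out, -0.41 when DEIX replicate 1 was, -0.28 when DEIX replicate 3 was and -0.51 when control replicate 3 was, with no call in any of these. Over all alternatives run, the difference of Hbb-bs ranged from -1.54 to -0.05.

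As an interaction, the difference of TBI+DEIX from TBI was set against that of DEIX from control. TBI mice received vehicle by mouth, whereas no gavage is stated for control. DEIX and any effect of gavage therefore cannot be told apart in the unirradiated mice. The estimates were -2.33 for Hba-a1, -2.50 for Hba-a2, -2.57 for Hbb-bs and -2.16 for Hbb-bt, with standard errors of 1.22 to 1.43. None was called by limma (adjusted p from 0.764 to 0.846), and 0.200% of all genes were. None had an unadjusted p below 0.05, as 7.50% of all genes did. The members' median of -2.41 became -1.51 without TBI+DEIX replicate 1, -0.23 with default array weights and -0.52 with gene-by-gene weights. It became -3.36 when TBI+DEIX replicate 2 was left out, and all 4 members then had an unadjusted p below 0.05 but none was called. The 22 calls over all genes ranged from 4 to 331 with 1 library left out, the most when TBI+DEIX replicate 1 was omitted. The larger gap in irradiated mice is therefore not shown to differ from that in unirradiated mice. These comparisons share libraries: TBI+DEIX enters 3 of them and control 4.

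**Figure D2:**
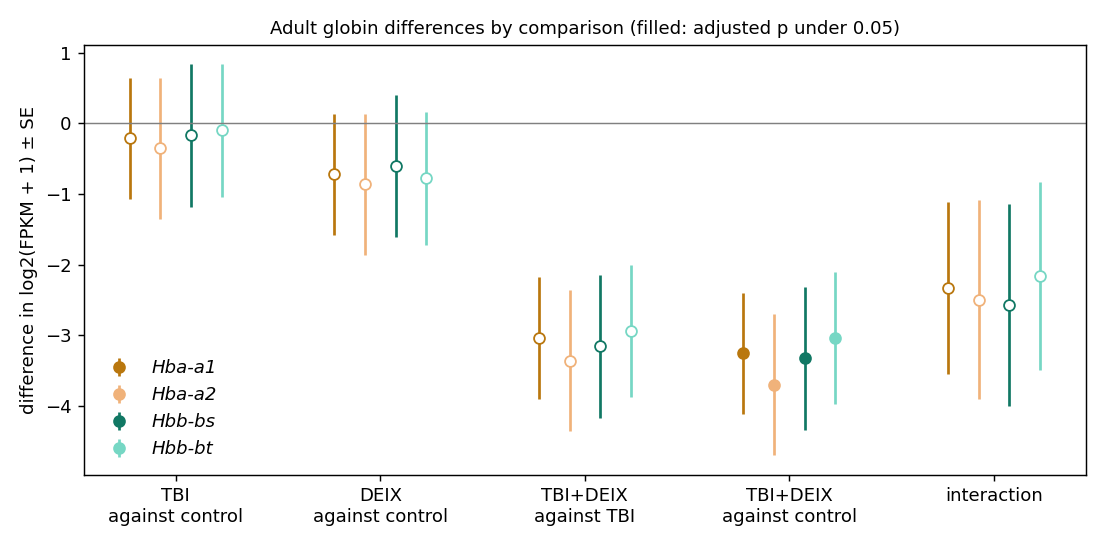
log2 difference of each adult globin gene in each comparison, with its standard error from limma; filled points mark genes called at an adjusted p below 0.05. Filled points appear only for TBI+DEIX against control, where all 4 genes lie between -3.04 and -3.70.

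The balance of alpha to beta output was measured as Hba-a1 plus Hba-a2 over Hbb-bs plus Hbb-bt, in which scaling between libraries cancels. The ratio was 1.5, 1.78 and 2.2 in control, 1.61, 1.47 and 2 in TBI, 2.05, 1.42 and 1.5 in TBI+DEIX and 1.8, 1.37 and 1.83 in DEIX. Its whole range was 1.6-fold over 12 libraries in which the 4 genes' sum spanned 77.5-fold. Group means were 1.83 ± 0.351, 1.69 ± 0.275, 1.66 ± 0.342 and 1.67 ± 0.257 in the same order (SD, n = 3 each), and every group overlapped with every other. An exact permutation test over the 4 groups gave p = 0.897. None of the 4 pairs of groups tested passed an exact two-sided permutation test either, although 3 libraries against 3 cannot give a p below 0.1.

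Within the beta pair, the Hbb-bt to Hbb-bs ratio was 0.342, 0.366 and 0.364 in control, 0.312, 0.409 and 0.417 in TBI, 0.422, 0.447 and 0.429 in TBI+DEIX and 0.329, 0.271 and 0.347 in DEIX. The TBI+DEIX libraries were above all others. Over the 4 groups the exact permutation p was 0.0400, which did not pass adjustment over the 15 ratio tests (adjusted p 0.3). TBI+DEIX against TBI and against control each reached the smallest possible exact p of 0.1 (adjusted 0.3). With each library left out in turn, the 4-group exact permutation p ranged from 0.00117 (adjusted 0.0175), with TBI replicate 1 omitted, to 0.112, with TBI+DEIX replicate 2 omitted, and it was above 0.05 in 8 of 12 cases. TBI+DEIX replicates 1 and 3 also had the lowest globin levels of the 12 libraries, and the part of depth or of read sharing between the copies in this ratio was not tested.

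Within the alpha pair, the Hba-a2 to Hba-a1 ratio was 0.588, 0.603 and 0.647 in control, 0.74, 0.536 and 0.44 in TBI, 0.32, 0.534 and 0.515 in TBI+DEIX and 0.514, 0.583 and 0.568 in DEIX. TBI+DEIX and DEIX lay below every control (exact permutation p = 0.1, adjusted 0.3, for each), and TBI spanned both sides. The exact permutation test over the 4 groups gave p = 0.306. The lowest ratio, 0.32, was in TBI+DEIX replicate 1, where Hba-a2 was at 24.2 FPKM.

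**Figure D3:**
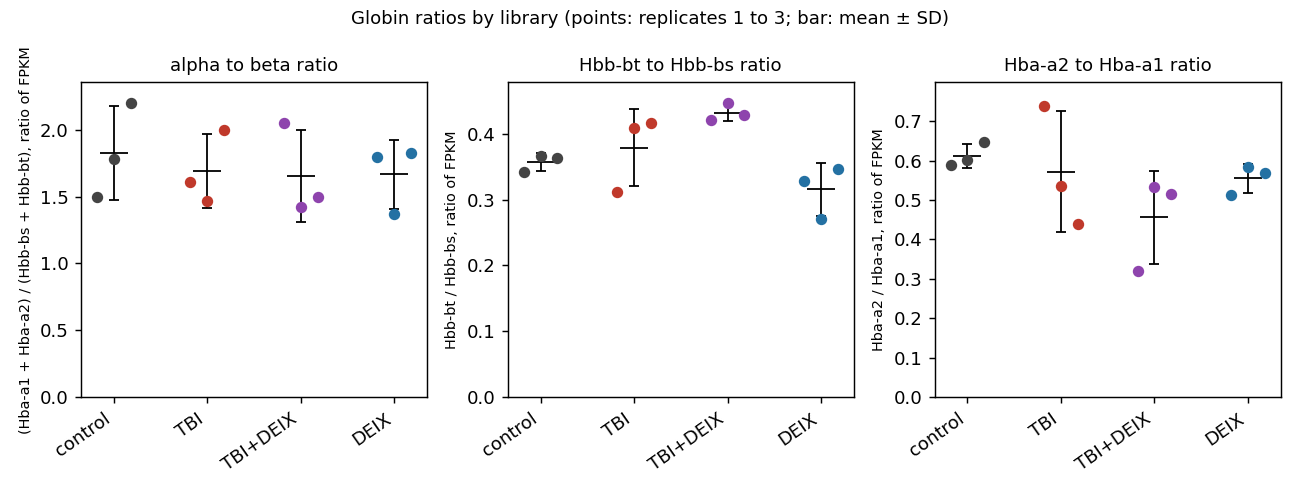
Alpha to beta, Hbb-bt to Hbb-bs and Hba-a2 to Hba-a1 ratios of FPKM in each library, by group, with group means. The alpha to beta ratio stays between 1.37 and 2.2 with all groups overlapping, and the Hbb-bt to Hbb-bs ratio is highest in the 3 TBI+DEIX libraries.

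Genes whose pattern over the 12 libraries was most like the mean globin profile were ranked by the root mean square difference of centred log2 values among 8339 genes with a mean of at least 5 FPKM. The nearest was Alas2, the erythroid enzyme that starts haem synthesis, at 0.44, where the median gene stood at 1.77. Near it were Tmcc2 (0.61), Epb42 and Slc4a1 (both 0.65), Mgst3 (0.74), Trim10 (0.78), Dmtn (0.83) and Pdzk1ip1 (0.85). Slc4a1 encodes the band 3 anion exchanger and Epb42 protein 4.2, both of the red cell membrane. Klf1, an activator of the beta globin gene, came in place 156 and Gata1, the erythroid master factor, in place 381. These 2, with Tfrc in place 206 and Epor in place 144, were chosen after their values were seen. The values were not scaled, so a gene that varied less than the globins ranked lower whatever its order over the libraries. The SD over the libraries was 0.77 for Klf1 and 0.67 for Gata1, against 1.72 to 1.96 for the globins.

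Alas2 stood at 46.9, 40.5 and 55.3 FPKM in control, 132, 18 and 45.5 in TBI, 2.58, 17.6 and 4.19 in TBI+DEIX and 23, 113 and 24.6 in DEIX. Its order over the libraries was close to that of the globins, though the lowest of DEIX was replicate 1 rather than replicate 3. Klf1 stood at 39.7, 37.6 and 44.6 FPKM in control, 50, 44 and 86.2 in TBI, 20.8, 33 and 15 in TBI+DEIX and 15.7, 47 and 15.7 in DEIX. Its lowest TBI+DEIX library was replicate 3, not replicate 1, and it ranged less than the globins did. Relative to the control mean, globins summed were at -5.26 in TBI+DEIX replicate 1 on the log2 scale, Alas2 at -4.21, Slc4a1 at -2.96, Klf1 at -0.96, Gata1 at -0.58 and Tfrc at -0.35. The gap was smaller in TBI+DEIX replicate 3, with globins at -3.47, Klf1 at -1.44, Gata1 at -1.20 and Tfrc at -1.08, and in TBI+DEIX replicate 2, with globins at -1.48 and Gata1 at -0.36. In DEIX replicate 1 the globins were at -1.47, Klf1 at -1.38 and Gata1 at -1.37. In DEIX replicate 3 the globins were at -1.72 and Gata1 at -1.19. A gap was also present without DEIX. In TBI replicate 2 the globins were at -1.34, Klf1 at 0.12 and Gata1 at 0.17. In TBI replicate 3 they were at -0.45, 1.09 and 0.97 in the same order. TBI replicate 1 went the other way, with globins at 1.02, Klf1 at 0.30 and Gata1 at 0.13.

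**Figure D4:**
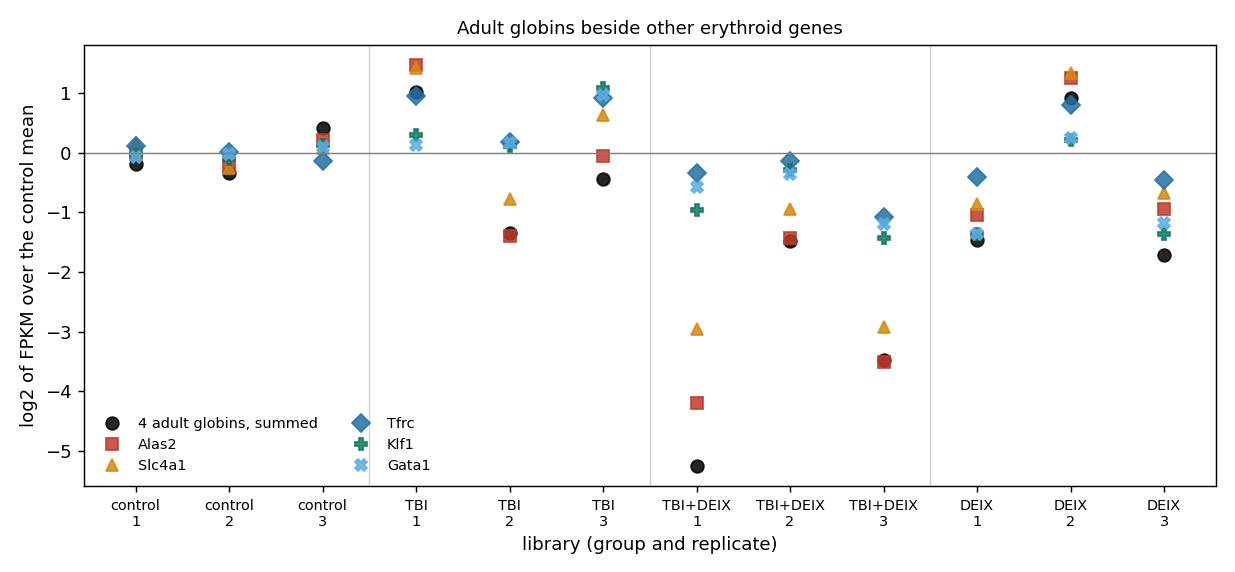
log2 of FPKM over the control mean in each library, for the 4 adult globins summed and for Alas2, Slc4a1, Tfrc, Klf1 and Gata1. The globins are at -5.26, -1.48 and -3.47 and Gata1 at -0.58, -0.36 and -1.20 in TBI+DEIX replicates 1 to 3, and both are near each other, at -1.47 and -1.37, in DEIX replicate 1. In TBI replicates 2 and 3 the globins are at -1.34 and -0.45 and Gata1 at 0.17 and 0.97.

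Of other globin genes, 6 of 7 listed were in the table and 1 was tested. Hbq1b, a minor alpha-like gene, stood at 6.11, 5.26 and 6.63 FPKM in control, 12.9, 2.25 and 5.01 in TBI, 0.103, 2.29 and 0.863 in TBI+DEIX and 3.38, 10.6 and 2.28 in DEIX. It fell by 1.88 (SE 0.57) in TBI+DEIX against control (limma adjusted p 0.0294), a call that was lost without any one of control replicates 1, 2 and 3 or TBI+DEIX replicates 1 and 3. The embryonic genes Hba-x, Hbb-y, Hbb-bh1 and Hbb-bh2 and the minor gene Hbq1a were under 1 FPKM in every library.

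Among 14 regulators of globin transcription, 5 rose and 4 fell in TBI+DEIX against control, where 30.0% of all tested genes were called and 13.1% fell, and the list's median was -0.52. Those that fell were Myb (-1.09), a progenitor factor, Bcl11a (-0.69), a globin switching repressor, and Lmo2 (-0.65) and Ldb1 (-0.38), partners in the GATA1 complex. Bach1 (0.70), a haem-sensitive repressor, Cited2 (0.51), Nfe2 (0.50), Zbtb7a (0.38) and Mbd2 (0.37) rose. Klf1 was at -0.87 (adjusted p 0.132) and Gata1 at -0.67 (adjusted p 0.189), neither called by limma. Both were lower without overlap, as were 21.1% of all tested genes. Against TBI, where 8.10% of all genes were called, the calls among the 14 were Bach1 (0.49), higher, and Lmo2 (-0.57), lower, while 9 of the 14 had negative and 5 positive differences. Klf1 was at -1.36 (limma adjusted p 0.0628). Calls among the 14 were not limited to TBI+DEIX. Myb fell in TBI against control (-0.77), where 3.99% of all genes were called. In DEIX against control, where 7.24% were called, Myb fell (-0.77) and Cited2 (0.74) and Bach1 (0.58) rose.

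Of 14 genes of haem synthesis and its carriers, 4 fell and 2 rose in TBI+DEIX against control, beside 13.1% of all genes that fell and 30.0% called in all. Alas2 fell by 2.78 and the pathway enzymes Uros, Alad and Urod fell by 1.49, 1.18 and 0.83, while Hmox1, which degrades haem, rose by 0.56 and the haem exporter Flvcr1 by 0.56. The count of 4 that fell became 1 when any 1 of the control libraries or TBI+DEIX replicate 1 or 3 was left out, and Alas2 reached an adjusted p of up to 0.0702 in limma over the alternatives. Against TBI, Uros (-1.83), Alad (-1.51), Urod (-1.03) and the mitochondrial protein Tmem14c (-0.82) fell, beside 3.41% of all genes, and Hmox1 rose by 0.78. Alas2 stood at -2.80 there, not called (limma adjusted p 0.0525).

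Of 19 red cell membrane and late erythroid genes, 8 fell and none rose in TBI+DEIX against either control, where 13.1% of all genes fell, or TBI, where 3.41% did. Against control the median was -1.14, and those that fell included Slc4a1 (-2.20), Epb42 (-2.14), Kel (-1.85), Trim10 (-1.84), Rhd (-1.80) and Car2 (-1.41), a carbonic anhydrase. Against TBI all 19 were lower, with a median of -1.59. Tmod1 (-1.59) took the place of Car2 among those called, beside genes that included Slc4a1 (-2.64), Epb42 (-2.46), Trim10 (-2.21), Kel (-1.98) and Rhd (-1.98). The count against TBI was 0 with no filter on low values and without TBI replicate 1. Against control the counts were between 1 and 3 without any one of control replicates 1, 2 and 3 or TBI+DEIX replicates 1 and 3. In TBI against control 18 of the 19 genes had positive differences, with a median of 0.36. None was called there, beside 3.99% of all genes, and the globins' median was -0.19.

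Of 10 early erythroid and progenitor genes tested, Car1 (-1.94), Cd36 (-1.45) and Kit (-0.96) fell in TBI+DEIX against control and Epor (-1.25), the erythropoietin receptor, fell against TBI, where 3.41% of all genes did. Against control 13.1% of all genes fell and 30.0% were called in either direction. Of 15 genes that keep globin protein in balance, Ppp1r15a (-2.03), Prdx2 (-1.20), an abundant red cell peroxidase, and Sod1 (-0.69) fell against control while Ulk1 (0.52) and Nfe2l1 (0.38) rose. Against TBI, Prdx2 (-1.41) and catalase, Cat (-0.50), fell, beside 3.41% of all genes. Of 7 tested neighbours of the alpha locus, Snrnp25 (-0.65) and Mpg (-0.57) fell against control and none was called against TBI. In each list with genes that fell against TBI, that count dropped to 0 when either TBI replicate 3 or TBI+DEIX replicate 3 was left out, and when only the groups compared were fitted. The alpha neighbours' median against control was -0.29, beside -3.26 for Hba-a1 and -3.70 for Hba-a2.

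Marker genes of other cells were read in the same fit. In TBI+DEIX against control, 8 of 10 B lineage, 9 of 10 megakaryocyte and 5 of 9 T and NK cell markers fell, beside 13.1% of all genes. Of 10 neutrophil markers 3 rose and 1 fell, beside 1855 of 10994 genes that rose. Of 9 monocyte and macrophage markers tested 2 rose and none fell, though 7 had negative differences. Among 10 erythroid markers 4 fell, and all 10 had negative differences. Summed over 10 B lineage markers, FPKM ranged from 403 to 485 in control, 30.9 to 377 in TBI, 7.89 to 187 in TBI+DEIX and 63 to 98.2 in DEIX. Megakaryocyte markers summed to 119 to 183 in control, 36.9 to 54.1 in TBI, 29.6 to 45.4 in TBI+DEIX and 67 to 118 in DEIX. The 9 T and NK cell markers summed to 184 to 214, 106 to 140, 59.6 to 146 and 140 to 194 in the same order. Neutrophil sums ranged from 23617 to 32940 in control, 26585 to 33829 in TBI, 22473 to 53191 in TBI+DEIX and 27981 to 39194 in DEIX. The TBI+DEIX median was 51350, so 2 of its 3 libraries lay above every other library and 1 below. The 10 erythroid markers summed to 407 to 471 in control, 370 to 906 in TBI, 118 to 288 in TBI+DEIX and 228 to 809 in DEIX. Erythroid markers were present in every library. The part of these shifts in the globin differences was not tested.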

How the data were processed

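RNA sequencing was done on whole bone marrow in 12 libraries, 3 per group, with a strand-specific mRNA kit, per the labels' protocols. The authors deposited 1 table of FPKM values per gene, with STAR 2.6, Cufflinks 2.2.1 and build mm10 named in the submitters' processing notes. The annotation is not given in the sources used here, but all 21853 identifiers matched GENCODE vM21. FPKM holds no read counts, so no count test was run and no counting interval is given.

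Genes with at least 1 FPKM in at least 3 of 12 libraries (10994) were fitted in limma 3.58.1 (R 4.3.3) on log2(FPKM + 1), with a mean per group, a variance trend and Benjamini-Hochberg adjustment over all of them. Adding 1 understates changes of low genes. The fit was tested on simulated data. Ratios were taken per library and compared by exact permutation tests, 15 in all with adjustment over the family. The members, gene lists and tests were chosen with earlier results of these data known. All members were named, with list genes named if called or among the 3 most abundant of their list, and the 10 genes most like the globins. Some genes that this rule names are not reported here. Alternatives changed the pseudocount, filter, scaling, libraries fitted, variance trend, library weights and replicate block, and left out each library. The gene-by-gene library weights were added after seeing the data. The ratio of Ahsp to alpha globin was not analysed here. Promoters came from RefSeq (GRCm38.p6).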

Additional observations from a re-analysis of the deposited data

How the results depend on the processing

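The number of adult globins called in TBI+DEIX against control was 4 and ranged from 0 to 4 with 1 library left out. It became 2 with no filter on low values and 3 when only the groups compared were fitted. Against TBI it was 0, became 1 on a TPM scale and 2 on a TPM scale without S100a8, S100a9 and Ngp, and ranged from 0 to 4 with 1 library left out. TPM lowered the median of all genes from 0.0032 to -0.12 in that comparison and from 0.02 to -0.12 in DEIX against control. In TBI against control it was 0 and became 3 with limma's default array weights, which stopped before converging; gene-by-gene weights, chosen after seeing the data, gave 0. In DEIX against control and in the interaction it was 0 under every alternative run. The direction of each member was kept in every comparison except TBI against control. With 1 library left out, the range there was -0.77 to 0.35 for Hba-a1, -1.10 to 0.25 for Hba-a2, -0.87 to 0.32 for Hbb-bs and -0.66 to 0.34 for Hbb-bt, positive without TBI replicate 2 for all 4, and for some without control replicate 3 or TBI replicate 3. In the same comparison it was -0.70 to 0.71 for Alas2, -0.05 to 1.03 for Slc4a1 and -0.66 to 0.39 for Hbq1b. Default array weights turned Alas2 to -0.93 and Slc4a1 to -0.33, and gene-by-gene weights to -0.71 and -0.15. In DEIX against control, leaving out 1 library gave -0.96 to 0.16 for Alas2, -0.75 to 0.34 for Slc4a1 and -0.88 to 0.03 for Hbq1b. In the interaction, default array weights turned Klf1 to 0.07 and Hbq1b to 0.02. The cause was not tested.

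With Hba-a1 over Hbb-bs alone, the log2 alpha to beta difference became 0.13 in TBI+DEIX against TBI and 0.08 against control. With 1 library left out, it ranged from -0.24 to 0.04 in TBI against control, from -0.20 to 0.09 in TBI+DEIX against TBI, from -0.26 to 0.02 in DEIX against control and from -0.31 to -0.0012 in TBI+DEIX against control. In TBI against control the Hbb-bt to Hbb-bs difference ranged from -0.0015 to 0.21 and that of Hba-a2 to Hba-a1 from -0.33 to 0.04. The 4-group F statistic of the Hbb-bt to Hbb-bs ratio ranged from 3.06 to 10.9. Replicate numbers did not pair the libraries, since same-numbered libraries correlated from -0.447 to 0.242 in their deviations. With the replicate block, 4 members were called in TBI+DEIX against control (adjusted p 0.0265 to 0.041) and 0 against TBI (0.0778 to 0.0974), and calls over all genes went from 3299 to 3000 and from 891 to 474. With default array weights, calls over all genes were 7017 in TBI against control, 5532 in TBI+DEIX against TBI, 5249 in DEIX against control, 6866 in TBI+DEIX against control and 1148 in the interaction. The interaction could not be fitted on only the groups compared. The libraries' read depth is unknown, which limits what low values in TBI+DEIX can show.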
